A study of Mus musculus with 4 samples.

Results

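The fetal mouse gonads of embryonic day E14.5 were compared with those of E12.5 across all genes, to describe how the gonad without its mesonephros changed over this interval. Both groups came from wild-type C57BL/6J embryos that carried no transgene and received no treatment. At each day XX and XY gonads were pooled in equal numbers, with no fewer than 6 gonads of each sex, from 2 litters, in a pool, and 1 library was made from 1 μg of the pooled RNA. The genes compared were those with at least 10 counts in at least 1 of the 2 libraries, which were 18943 of the 40999 listed. Libraries from E13.5, also free of mesonephros, and from E11.5, which still held the mesonephros, are given for context. As ovary and testis were pooled, no value here separates the sexes, and a difference between the days may come from either.

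Between these days the gonad passes from recently decided sex to working organ. In the ovary, germ cells leave mitosis and enter the prophase of meiosis, in which homologous chromosomes pair along the synaptonemal complex and are broken and repaired by recombination. In the testis, germ cells are held out of meiosis and begin the male programme, and fetal Leydig cells appear between the cords and make androgen from cholesterol. Blood reaching the embryo changes in the same interval, as red cells made in the yolk sac give way to those made in the liver.

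Deduplicated counts summed to 25593453 in the E12.5 library and 31526303 in that of E14.5. There was 1 library a day and so no spread between replicates to test against. No p-value is given, and each fold change carries an exact 95% Clopper-Pearson interval that covers counting error only. A gene is said to have risen or fallen where the change was at least 2-fold and that interval lay wholly on 1 side of no change. A level is the CPM on library sizes scaled by edgeR's TMM over the 4 libraries (scaled CPM), and it is compared between days, not between genes. Fold changes used the TMM scaling of the E12.5 and E14.5 pair, so they differ slightly from the ratio of 2 levels. A count of 0 was put at a limit of 3 counts, which is 0.0957 scaled CPM at E12.5 and 0.159 at E14.5. Counts are unscaled, so the same count stands for different levels on different days. For 3 counts the level is 0.0757 at E13.5, below the 0.159 at E14.5.

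The composition of the libraries differed. Ribosomal RNA took 8.90% of the counts at E12.5 and 48.9% at E14.5, against 17.7% at E11.5 and 8.72% at E13.5, and protein-coding genes took 80.9% at E12.5 and 43.0% at E14.5. The scaling sets the typical gene near no change, so the median log2 fold change of 0.01 over the genes kept follows from it. Whether single genes or classes still carry the difference in composition was not tested. On unscaled total counts every log2 fold change would be 1.05 lower, so directions are relative to the typical gene. Of the 22 gene lists whose median was above 0, 16 had a median below 0 on total counts. The 15 housekeeping genes had no call and a median log2 fold change of -0.08. Xist, transcribed from the inactive X of XX cells, was at 571 and 614 scaled CPM, and Y-linked Ddx3y at 59.9 and 60.9, so the pools were alike in these marks of sex. The 16 mesonephros and nephric genes summed to 434 scaled CPM in the E11.5 library and to 176, 156 and 135 on the later days. Nephric Pax2 was at 44.7 at E11.5 and at 1.91 in both libraries compared. In this list Osr1 rose 2.50-fold and Gcm1 fell from 32 counts to 0, at least 6.34-fold lower.

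A total of 1606 genes (8.48%) were higher at E14.5 and 471 (2.49%) were lower, and these shares stand beside the count of each list below. Of the called genes, 583 rose and 134 fell by at least 4-fold. Calls were concentrated among thinly counted genes. The 5874 genes whose larger count was 10 to 99 gave 1019 of the rises and 320 of the falls, while the 5651 genes with 1000 counts or more gave 161 and 18. A further 400 genes were at least 2-fold apart but had an interval that reached no change. The plot of change against level shows the rises reaching far higher than the falls, with the rRNA genes among the largest.

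**Figure D1:**
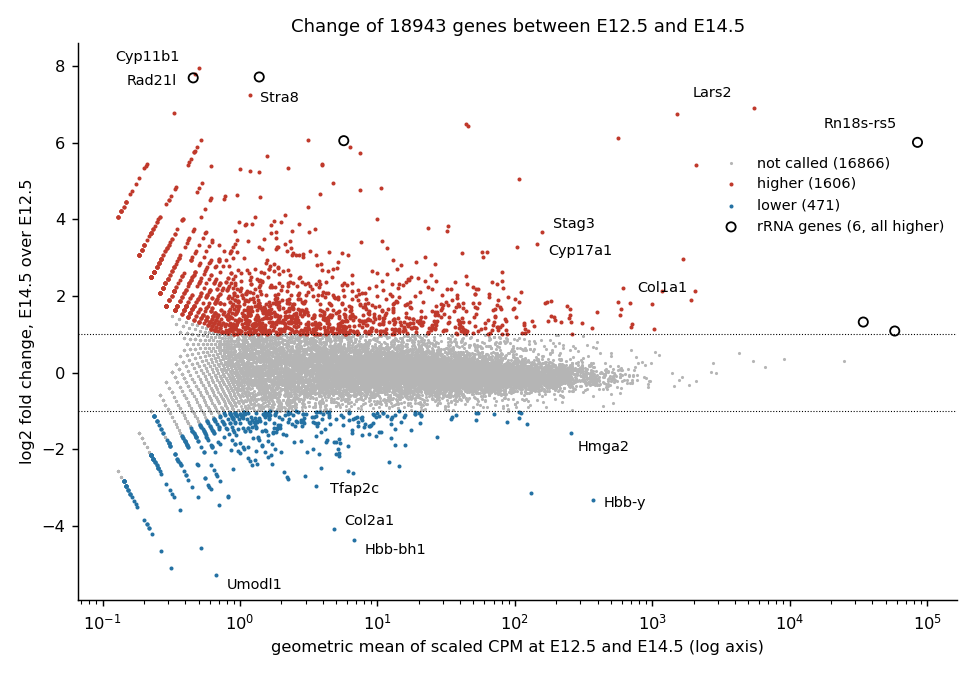
Each point is 1 of 18943 genes, with the geometric mean of its scaled CPM in the 2 libraries on a log axis and its log2 fold change (E14.5 over E12.5) on the vertical axis. The 1606 genes called higher are red, the 471 called lower are blue, dotted lines mark 2-fold, and open circles mark the 6 rRNA genes. Genes at 0 counts are drawn at the 3-count limit.

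Among protein-coding genes with at least 100 counts, the 12 largest rises included 3 meiotic genes of the lists described here (Rad21l, Stra8 and Gm1564, now Meioc) and the adrenal-type steroid enzyme Cyp11b1. Dmrtc2, a DM-domain factor of germ cells in meiosis, went from 5 counts to 119 (40.0-fold, 16.7 to 126). Ankrd31, needed for meiotic DNA breaks on the sex chromosomes, went from 6 counts to 136 (38.1-fold, 17.1 to 106). The others were Lars2, Foxa1, Xylb, Doc2a, 1700030F18Rik and Gm884, and the first 3 of these are taken up with ribosomal RNA at the end. Doc2a was at 3.36, 0.351, 1.09 and 14.2 scaled CPM from E11.5 to E14.5, and 1700030F18Rik at 2.51, 0.383, 0.884 and 25.5. Like the first 3, both were higher at E11.5 than at E12.5 or E13.5. The 12 largest falls held the 3 embryonic globins, the cartilage collagens Col2a1 and Col9a1, the steroid enzyme Hsd3b6 and the germ cell factor Tfap2c. They also held Umodl1, which went from 130 counts to 2 (38.7-fold lower, 10.5 to 323), the digestive protease precursor Ctrb1, from 514 to 50, and the transcriptional repressor Scrt2, from 238 to 22. 1700019D03Rik and Dennd1c completed them, at 184 to 16 and 163 to 16 counts.

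**Figure D2:**
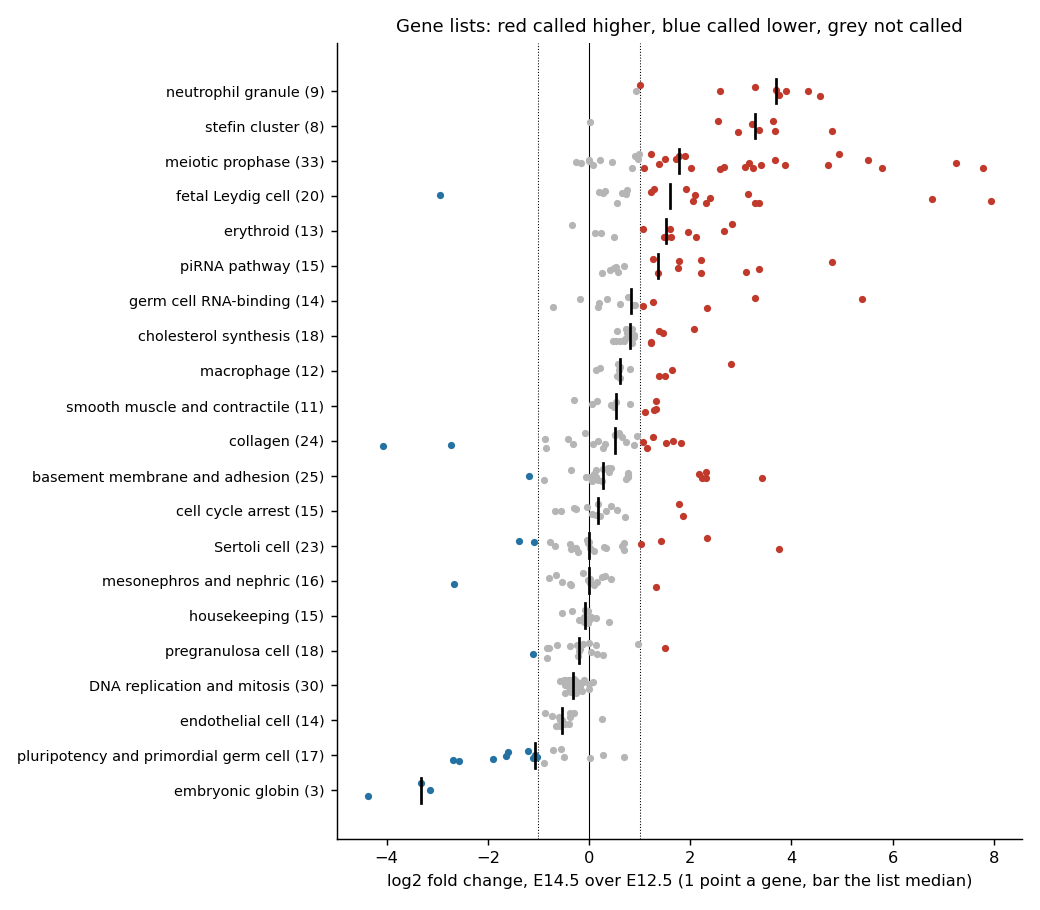
Log2 fold change (E14.5 over E12.5) of each gene of 21 lists, 1 point a gene, red where it rose, blue where it fell and grey otherwise, with a bar at the list's median and the number of genes kept in brackets. The medians run from -3.33 for the embryonic globins to 3.70 for the neutrophil granule genes, with the meiotic prophase list at 1.78.

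Genes of meiotic prophase rose. Of 33 kept, 22 rose, beside 8.48% of all genes, and none fell, with a median log2 fold change of 1.78 beside 0.01 over all genes. In a pooled gonad a change in the number of cells of a type and a change in RNA per cell cannot be told apart, here and in the groups that follow. The summed level of the meiotic prophase list was 262, 319, 492 and 1173 scaled CPM from E11.5 to E14.5. Stag3 alone supplied 83.6, 44.5, 65.2 and 562 of these sums, so much of the last step came from that gene. On total counts 14 of the 33 were still higher and 4 were lower.

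Stra8, the retinoic acid-responsive gene that opens meiosis, had 0, 3, 430 and 272 counts from E11.5 to E14.5. Its level was 10.9 scaled CPM at E13.5 and 14.4 at E14.5. Stra8 was thus near the limit of detection at E12.5 and high on both later days, and the change from E12.5 to E14.5 was 152-fold (51.6 to 744). Gm1564 (Meioc), whose product keeps germ cells in the meiotic programme, followed with 17, 27, 496 and 492 counts in the 4 libraries and rose 30.6-fold (20.8 to 47.0). Its partner Ythdc2, a helicase that many other cells also express, was flat at 33.6 and 33.3 scaled CPM.

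Genes for both the lateral and the central elements of the synaptonemal complex rose. Sycp3, an axis protein, was at 0.175, 2.11, 5.10 and 17.6 scaled CPM from E11.5 to E14.5 and rose 8.43-fold (6.46 to 11.2). Sycp1, the transverse filament, was at 0.409, 3.86, 17.6 and 36.3 and rose 9.51-fold (7.82 to 11.6). Both were thus higher at each later day, and Sycp2 rose 10.5-fold with them. Of the central element genes, Tex12 rose 8.99-fold (5.73 to 14.7), Syce3 6.05-fold and Syce1 2.33-fold, while Syce2 had a ratio of 1.16 (1.01 to 1.34).

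The cohesins that hold meiotic chromosomes differed in their course. Rad21l had 3, 1, 10 and 131 counts from E11.5 to E14.5, so that most of its counts came with the last day, and its ratio of 220 is loosely bound (38.9 to 8766). Stag3 was at 83.6, 44.5, 65.2 and 562 scaled CPM and rose 12.8-fold (12.1 to 13.53). Unlike the synaptonemal genes, it was higher at E11.5 than at E13.5. Smc1b rose 3.30-fold, and Rec8, with a ratio of 1.38, was not called.

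Genes for the making and repair of meiotic breaks were lower in count. Mei1 had 2 counts at E12.5 and 66 at E14.5, a ratio of 55.5 (14.8 to 468). Spata22 had 2 and 54, a ratio of 45.4 (12.0 to 384). Meiob, whose protein binds single-stranded DNA together with that of Spata22, had 0 and 47, at least 26.3-fold higher. Prdm9, which marks the sites of recombination, rose 6.35-fold (4.61 to 8.89), Spo11, which cuts them, 4.04-fold (2.73 to 6.11) and Dmc1, the strand exchange protein, 2.84-fold (2.31 to 3.50). Terb1, listed as Ccdc79, which ties telomeres to the nuclear envelope, rose 14.6-fold (7.59 to 31.6).

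**Figure D3:**
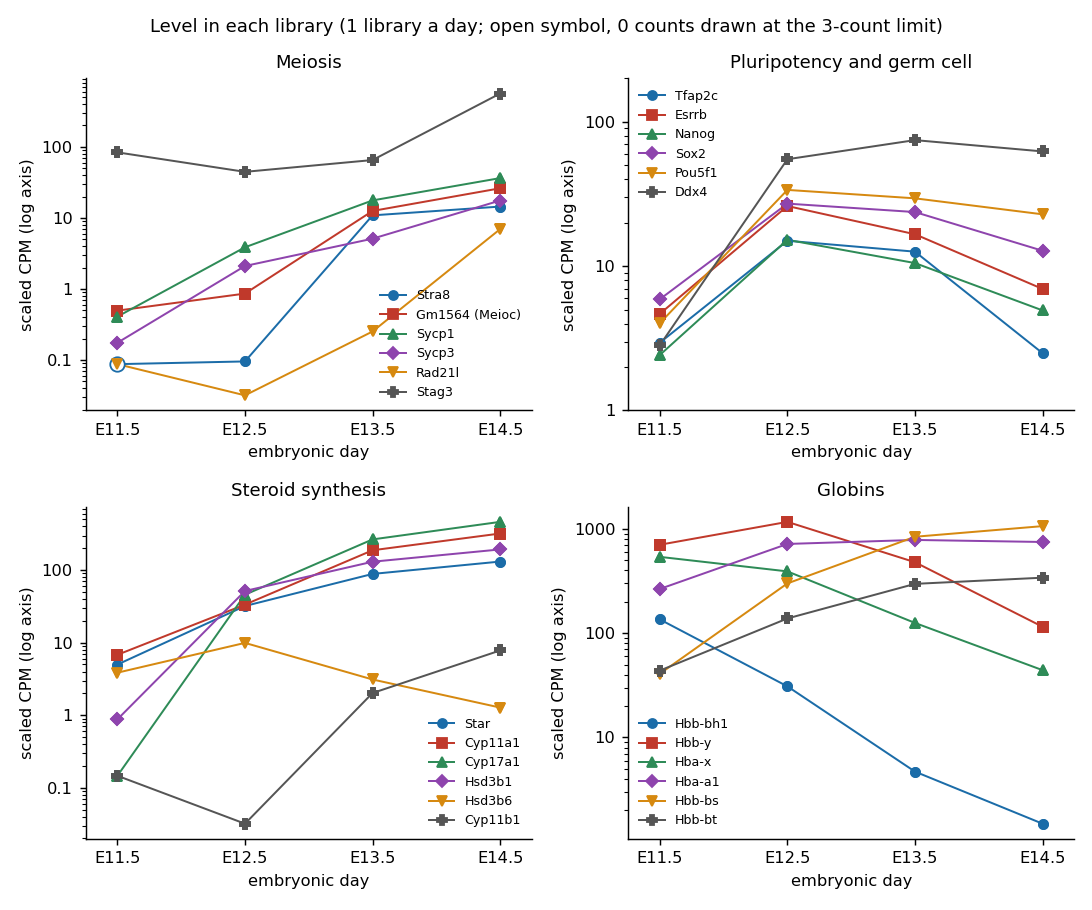
Scaled CPM (log axis) of single genes in the 4 libraries, 1 library a day, in panels for meiosis, pluripotency and germ cells, steroid synthesis and globins, with 0 counts drawn open at the 3-count limit. Meiosis genes climb (Sycp1 from 3.86 at E12.5 to 36.3 at E14.5), Tfap2c drops from 15.0 to 2.49 while Ddx4 holds at 55.1 and 62.4, Cyp17a1 goes from 45.9 to 463, and Hbb-bh1 falls from 30.9 to 1.49.

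The promoters of these genes were searched for CACGTG, an E-box that reads the same on both strands, in the 250 bases before and 50 after the start of each gene in RefSeq (build GRCm38, called mm10 by the authors). It was present in 6 of 26 meiotic prophase genes with a promoter sequence (23.1%), in 7 of 14 piRNA pathway genes and in 6 of 11 germ cell RNA-binding genes. Of those last 6, Boll, Adad2 and Mov10l1 rose, and Ddx4, Cpeb1 and Ddx25 were not called. Among the meiotic and piRNA genes with it, Syce2, Fkbp6 and Pld6 were not called and the others rose. A gene was counted where any of its promoters held the E-box. By that rule it was present in 8.09% of all 27025 genes with a promoter and in 11.3% of the protein-coding genes kept here that had one. Of protein-coding genes that rose 9.93% held it, and of those that fell 7.44%. None of the 11 pluripotency, 11 Leydig or 11 housekeeping genes with a promoter sequence had it. The 250 bases before the start of 2 synaptonemal complex genes and 2 piRNA genes that rose are shown 5′ to 3′ on the gene's own strand, with the E-box in capitals. Sycp3 lies at chr10:88459337-88459586 on the plus strand, Tex12 at chr9:50561269-50561518 on the minus strand, Tdrd9 at chr12:111971309-111971558 on the plus strand and Piwil1 at chr5:128735996-128736245 on the plus strand.
Sycp3: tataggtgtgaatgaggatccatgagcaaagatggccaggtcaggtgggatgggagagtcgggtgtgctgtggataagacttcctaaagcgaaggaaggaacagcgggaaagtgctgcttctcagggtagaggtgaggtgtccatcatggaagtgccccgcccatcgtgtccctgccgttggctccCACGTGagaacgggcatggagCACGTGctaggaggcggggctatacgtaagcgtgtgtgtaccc
Tex12: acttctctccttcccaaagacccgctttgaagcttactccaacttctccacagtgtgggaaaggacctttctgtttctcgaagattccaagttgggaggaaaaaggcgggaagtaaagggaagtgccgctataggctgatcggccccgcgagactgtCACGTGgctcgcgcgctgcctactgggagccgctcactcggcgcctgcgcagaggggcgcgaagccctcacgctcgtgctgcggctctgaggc
Tdrd9: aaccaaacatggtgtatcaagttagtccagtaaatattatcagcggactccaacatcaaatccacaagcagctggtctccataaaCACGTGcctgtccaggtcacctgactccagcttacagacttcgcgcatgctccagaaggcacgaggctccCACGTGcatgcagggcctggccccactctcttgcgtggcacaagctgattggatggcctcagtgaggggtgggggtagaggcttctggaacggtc
Piwil1: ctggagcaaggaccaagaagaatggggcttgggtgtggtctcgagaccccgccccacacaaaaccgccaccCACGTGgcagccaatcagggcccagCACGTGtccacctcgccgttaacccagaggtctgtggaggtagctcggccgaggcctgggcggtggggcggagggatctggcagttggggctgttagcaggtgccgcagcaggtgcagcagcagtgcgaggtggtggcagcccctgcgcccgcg
Sycp3, Tdrd9 and Piwil1 each hold 2 copies in this window and Tex12 holds 1. A match of letters is a description of the sequence, and whether any factor binds there was not measured.

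The pluripotency and primordial germ cell genes went the other way. Of 17 kept, 10 fell, beside 2.49% of all genes, and none rose, with a median log2 fold change of -1.07. Tfap2c, a factor that specifies primordial germ cells, was at 2.95, 15.0, 12.6 and 2.49 scaled CPM from E11.5 to E14.5 and fell 5.95-fold (4.40 to 8.21). It was still high at E13.5, so the fall came with the last day. Esrrb, a nuclear receptor of the pluripotency network, was at 4.67, 26.1, 16.6 and 6.95 and fell 3.71-fold (3.08 to 4.50). Nanog fell 3.05-fold (2.44 to 3.85), Prdm14 3.13-fold, Dppa5a 2.30-fold, Prdm1 2.14-fold and Sox2 2.10-fold. Tdgf1, a co-receptor for Nodal, went from 54 counts to 5.

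Several well-known members of the same list were not called. Pou5f1 (Oct4) was at 33.8 and 22.9 scaled CPM, 1.46-fold lower (1.30 to 1.64), and the stem cell factor receptor Kit was 1.87-fold lower (1.72 to 2.02). Dppa3 (Stella) was level at 33.9 and 34.0, and Dppa4 had a ratio of 1.62 upward. The general germ cell genes were also near level. Ddx4, the vasa helicase, was at 55.1 and 62.4 and Dazl, an RNA-binding licensing factor, at 145 and 162. Their ratios were 1.15 and 1.13, while Tfap2c and Nanog fell in the same libraries. L1td1, an RNA-binding protein of pluripotent cells, fell 5.42-fold (4.47 to 6.63), and Sall4 and Mycn fell 2.08-fold each. The X-linked homeobox genes Rhox5, Rhox6 and Rhox9 fell 2.53-, 5.56- and 3.79-fold.

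Among other germ cell genes, those of the piRNA pathway rose. This pathway guards the germ line against transposons with small RNAs loaded on PIWI proteins. Of 15 kept, 9 rose and none fell, beside 8.48% higher and 2.49% lower over all genes, with a median log2 fold change of 1.37. Piwil4, the PIWI protein of fetal male germ cells that guides DNA methylation, was at 0.670 and 6.85 scaled CPM and rose 10.3-fold (6.48 to 17.3). Tdrd9, a helicase that works with it, was at 0.905, 0.989, 1.74 and 8.38 in the 4 libraries and rose 8.57-fold (5.80 to 13.04). Mael rose 4.63-fold (3.94 to 5.46), Tdrd1 3.44-fold and Tdrd5 2.58-fold, and Gtsf1 had 3 counts at E12.5 and 50 at E14.5. Piwil2, already at 24.8 scaled CPM at E12.5, had a ratio of 1.40. On total counts 5 of the 15 were higher and none lower.

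Of 14 germ cell RNA-binding genes 5 rose and none fell, beside 8.48% higher and 2.49% lower over all genes. Their median log2 fold change of 0.83 became -0.22 on total counts. Nanos2, which sets the male fate of germ cells and blocks meiosis, had 0, 0, 12 and 75 counts from E11.5 to E14.5, at least 42.0-fold higher. Dnmt3l, the cofactor of DNA methylation in male germ cells, had 0, 0, 2 and 29 counts, at least 16.3-fold higher. Both appeared after E12.5 and had more counts at E14.5 than at E13.5. Adad1 rose 9.73-fold and Boll 5.04-fold. Nodal, the ligand of a signal that runs briefly in XY germ cells, fell 2.45-fold, while the inhibitor Lefty2 was 1.74-fold lower (1.52 to 2.004) and not called. On the oocyte side, Figla had 3 counts and then 11, and Nobox 2 and then 1. Sohlh2 was 1.12-fold lower. The 6 genes kept in this list also counted Gata4, at 322 and 272 scaled CPM, and Zar1, so not all of them mark the oocyte. Of the 6, 2 rose (Figla and Sohlh1, both under 20 counts).

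Among X-linked and sex chromosome genes, Taf7l, a germ cell form of a transcription initiation factor, went from 24 counts to 359 (25.2-fold, 16.6 to 39.8), Tktl1 from 9 to 77 and Nxf2 from 28 to 140. Sry, the testis-determining gene, had 100, 19, 1 and 0 counts from E11.5 to E14.5.

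The steroid-making genes of fetal Leydig cells rose as a group. Of 20 kept, 12 rose and 1 fell, beside 8.48% and 2.49% of all genes. The median log2 fold change was 1.60, and their summed level was 251, 777, 1619 and 2252 scaled CPM from E11.5 to E14.5. On total counts 9 were higher and 1 lower. Star, which brings cholesterol into the mitochondrion, was at 32.0 and 131 scaled CPM and rose 4.15-fold (3.85 to 4.47). Cyp11a1, which cuts its side chain, was at 6.80, 33.5, 188 and 320 in the 4 libraries and rose 9.66-fold (9.04 to 10.3). Cyp17a1, the step to androgens, was at 0.146, 45.9, 265 and 463 and rose 10.2-fold (9.65 to 10.8). These genes were thus present at E12.5, and each of the 3 was higher at E13.5 and again at E14.5. Hsd3b1 rose 3.78-fold (3.57 to 4.01).

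Hormones and receptors of the same cells moved in the same direction. Insl3, the hormone of testis descent, had 0, 47, 280 and 247 counts from E11.5 to E14.5 and rose 8.84-fold (6.45 to 12.3). Its level was 7.07 scaled CPM at E13.5 and 13.1 at E14.5. Ren1, which codes for renin, rose 5.25-fold, Lhcgr, the luteinizing hormone receptor, 4.97-fold and Scarb1, which takes up lipoprotein cholesterol, 2.44-fold. Nr5a1, the shared regulator of gonadal steroid cells, was at 158 and 179, a ratio of 1.14. The prolactin receptor Prlr rose 4.54-fold (4.10 to 5.04) and Alas1, the first enzyme of heme synthesis, 2.80-fold.

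Enzymes that define the adrenal cortex appeared in the gonad library as well. Cyp11b1 had 5, 1, 80 and 147 counts from E11.5 to E14.5, a ratio of 247 with a wide interval (43.7 to 9829). Cyp21a1 had 8, 1, 45 and 65 counts, a ratio of 109 (18.9 to 4383). The 2 genes were near the limit of detection at E12.5 and clearly present afterwards. Mc2r, the corticotropin receptor, was at 2.52 and 3.02 and was not called. Against the other members of the list, Hsd3b6 was at 3.85, 9.92, 3.11 and 1.27 scaled CPM and fell 7.71-fold (5.08 to 12.2), while its close relative Hsd3b1 rose. How reads that match both relatives were counted is not stated.

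Cholesterol synthesis genes went up by less. Of 18 kept, 5 rose and none fell, beside 8.48% and 2.49% of all genes. The smallest of the 18 log2 fold changes was 0.48. Tm7sf2 rose 4.24-fold (3.43 to 5.26), Fdps 2.76-fold, Lss 2.61-fold, Dhcr7 2.34-fold and Hsd17b7 2.32-fold. The median of 0.81 turned to -0.24 on total counts, so this group moved up relative to the typical gene only.

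Of 23 Sertoli cell genes kept, 4 rose, 2 fell and 17 were not called, beside 8.48% higher and 2.49% lower over all genes, and the median log2 fold change was 0.01. Sox9, which sets Sertoli fate, was at 80.7, 137, 90.6 and 79.1 scaled CPM from E11.5 to E14.5, 1.71-fold lower at E14.5 than at E12.5 (1.61 to 1.81). Amh, the hormone that removes the Müllerian duct, was at 1.31, 284, 260 and 302, nearly level from E12.5 on. Fgf9, which supports testis fate, fell 2.61-fold (2.10 to 3.27) and Etv5 2.12-fold. Clu rose 2.70-fold and Hsd17b1, an oestrogen-making enzyme, 5.04-fold (3.90 to 6.58). Outside the list, Etv4, a relative of Etv5, and the phosphatase genes Dusp4 and Dusp6 fell 3.08-, 3.23- and 2.09-fold, and these 3 were chosen after their values were seen.

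Of 18 pregranulosa cell genes, 1 rose and 1 fell. Over all genes 8.48% rose and 2.49% fell, and these shares also stand beside the other lists of this paragraph. Foxl2, the factor that keeps ovarian fate, was at 5.58, 15.7, 27.6 and 43.8 scaled CPM and rose 2.82-fold (2.52 to 3.16), the level growing at each day. Lef1, a nuclear partner of Wnt signalling, fell 2.15-fold. The ovarian signals Wnt4, at 55.5 and 61.1, and Rspo1, with a ratio of 1.21, were not called, and neither was Fst, at 51.6 and 43.2. Of 20 Wnt and BMP ligands and modulators 3 rose and 1 fell, with a median of 0.18 that was -0.87 on total counts. Inhba, the activin A subunit, was at 1.11, 7.37, 20.1 and 38.9 and rose 5.34-fold (4.60 to 6.22), Sfrp2 and Dkk3 rose 2.56- and 2.41-fold, and the Wnt inhibitor Dkk1 fell 3.39-fold. The retinoic acid list gave 1 rise in 15 genes, Aldh1a1 at 2.004-fold, which was -0.05 on the log2 scale on total counts. Cyp26b1, which degrades retinoic acid in the testis, was 1.60-fold lower (1.51 to 1.70).

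In the list of interstitial and steroid receptor genes, 3 of 15 rose and none fell, beside 8.48% and 2.49% of all genes. Their median was 0.22 and was -0.83 on total counts. Esr1, the oestrogen receptor alpha, was at 10.9, 16.9, 29.0 and 41.8 scaled CPM and rose 2.50-fold (2.24 to 2.80), and Pgr, the progesterone receptor, rose 2.52-fold. Both were highest at E14.5. The stromal factors Nr2f2 and Tcf21 and the hedgehog targets Ptch1 and Hhip had ratios from 1.01 to 1.09, and Gli1 had a ratio of 1.40.

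Of 24 collagen genes 6 rose, 2 fell and 16 were not called, beside 8.48% higher and 2.49% lower over all genes. The median log2 fold change of 0.51 turned to -0.54 on total counts, where none of the 24 was higher. Col1a1, a chain of the main collagen of connective tissue, was at 539, 371, 626 and 1299 scaled CPM and rose 3.54-fold (3.46 to 3.62). Col1a2 rose 2.40-fold, Col3a1 2.22-fold, Col6a1 and Col6a2 2.86- and 3.14-fold, and the basement membrane chain Col4a4 2.10-fold. The fibrillar chains Col5a1, Col5a2 and Col11a1 had ratios of 1.65, 1.85 and 1.25 and were not called. The cartilage collagens went the opposite way. Col2a1 was at 43.9, 19.9, 4.52 and 1.17 and fell 16.9-fold (11.04 to 27.1), and Col9a1 fell 6.65-fold. Both were highest in the E11.5 library and lower at each later day.

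Of the small proteoglycans in the lists, Dcn and Lum rose and Bgn (biglycan) had a ratio of 1.70 and was not called. Dcn (decorin) was at 28.3, 33.6, 67.3 and 165 scaled CPM and rose 4.98-fold (4.65 to 5.35), and Lum (lumican) rose 4.72-fold (4.16 to 5.36). Ogn and Aspn of the same family, picked from outside the lists with their values in view, rose 8.69-fold and 12.8-fold. Eln (elastin) rose 4.53-fold (4.17 to 4.92), and the microfibril gene Mfap4 3.92-fold. Among basement membrane genes, the laminin chain Lama2 rose 4.97-fold, while Lamc3 (1.69), Col4a6 (1.57), Col4a1 (1.21), Nid1 (1.14) and Lamc1 (1.05) had ratios that were not called. Of the 25 genes in the basement membrane and adhesion list, 5 rose and 1, Fbln2, fell (2.27-fold), beside 8.48% and 2.49% of all genes. Smooth muscle genes gave 4 rises in 11, beside the same shares, including Acta2 and Myh11, at 2.50- and 2.49-fold. Their median of 0.53 turned to -0.52 on total counts.

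The 3 embryonic globins fell, and of the 4 adult chains 2 rose. Hbb-bh1 was at 135.6, 30.9, 4.70 and 1.49 scaled CPM from E11.5 to E14.5 and fell 20.6-fold (14.1 to 31.1). Hbb-y was at 706, 1171, 480 and 115 and fell 10.04-fold (9.61 to 10.5), and Hba-x fell 8.77-fold. All 3 were lower at E13.5 than at E12.5 and lower again at E14.5. Of the adult chains, Hbb-bs was at 40.8, 301, 843 and 1065 and rose 3.59-fold (3.50 to 3.67), and Hbb-bt rose 2.49-fold, while Hba-a1 and Hba-a2 had ratios of 1.06 and 1.16. The pairs Hbb-bs and Hbb-bt, and Hba-a1 and Hba-a2, are near copies, so the split within a pair is uncertain. The median of the 4 adult chains was 0.76 and turned to -0.29 on total counts.

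Other erythroid genes rose in 9 of 13 cases, beside 8.48% of all genes, with a median of 1.53 that was 0.48 on total counts. Klf1, the factor of definitive red cells, had 59, 21, 136 and 89 counts and rose 7.13-fold (4.39 to 12.1). Its level was 3.43 scaled CPM at E13.5 and 4.72 at E14.5. Rhag rose 6.37-fold, Rhd 4.33-fold and Gata1 3.03-fold. Alas2, Slc4a1 and Epb4.2 had ratios of 1.40, 1.19 and 1.08, Tal1 was 1.26-fold lower, and none of these was called. Slc4a1, with 1256 counts at E12.5 and 886 at E14.5, was counted far more deeply than Klf1. No step to remove blood is described in the study's methods, and the share of circulating cells in the pools was not measured. The 14 endothelial genes gave no call in either direction, with a median of -0.54, and Pecam1 was at 70.2 and 45.7.

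Neutrophil granule genes made the highest median of the lists, 3.70, with 8 of 9 genes higher, beside 8.48% of all genes, and none lower. S100a9 had 135, 22, 77 and 264 counts in the 4 libraries and rose 20.2-fold (13.05 to 32.8), and S100a8 had 114, 22, 92 and 194 and rose 14.8-fold (9.52 to 24.2). Camp rose 23.5-fold (8.70 to 89.4), Ngp 13-fold and Ltf 9.74-fold. The stefin genes, inhibitors of cysteine proteases that myeloid cells express, had 7 of 8 higher, from 5.89-fold for Stfa2 to 27.7-fold for BC117090. They are a family of near copies, and reads shared between them may be split. On total counts 7 of the neutrophil and 7 of the stefin genes were still higher. Both groups were also high at E11.5 relative to E13.5. Of the neutrophil genes that rose, 6 of 8 were at least 2-fold higher at E11.5 than at E13.5, and of the stefin genes 6 of 6 that had enough counts. E11.5 and E14.5 were the 2 libraries with more rRNA as well, and the part of library composition in these rises was not tested. Macrophage genes gave 4 rises of 12, beside 8.48% of all genes, led by Lyz2 at 7.04-fold. Their median of 0.62 turned to -0.44 on total counts. On the main scaling the shared macrophage genes Csf1r and Adgre1 (listed as Emr1) had ratios of 1.49 and 1.5.

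Genes of DNA replication and mitosis drifted lower without a call. None of 30 passed in either direction, and the median log2 fold change was -0.31. Mki67 was at 512 and 509 scaled CPM and Top2a at 428 and 345. The largest fall of these was Mcm2 at 1.49-fold (1.41 to 1.58). Of 15 genes in the list of cell cycle arrest, which also holds cyclins, 2 rose and 0 fell, beside 8.48% and 2.49% of all genes. Their median of 0.18 turned to -0.87 on total counts. Cdkn2a went from 27 counts to 58 (3.61-fold, 2.25 to 5.93) and Cdkn2c from 65 to 133 (3.44-fold, 2.54 to 4.70), while Cdkn1b had a ratio of 1.13. The 13 not called ran from 1.60-fold lower for Ccne1 to 1.64-fold higher for Cdkn2d. The 16 stress response genes gave no call, so the 2 dissections did not differ by 2-fold in Fos (447 and 474), Jun (527 and 521) or Egr1 (899 and 1057). Of 22 imprinted genes, Nnat alone was called, at 217, 90.2, 73.5 and 321, which is 3.60-fold higher.

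Small structured RNAs rose more often than messenger RNAs. Of 15023 protein-coding genes kept, 1101 (7.33%) rose and 332 fell. Of 124 snoRNAs, which guide the modification of rRNA, 76 rose and none fell, which is 61.3% beside the 8.48% of all genes. Of 283 tRNA genes 92 (32.5%) rose and 1 fell, and of 9 snRNAs 5 rose. Long noncoding RNAs rose in 13.9% of 1202 genes. Pseudogenes went the other way, with 34 of 1456 higher and 64 lower. On total counts the medians of long noncoding RNAs (-0.94), tRNAs (-0.30) and mature miRNAs (-0.23) were below 0, those of snoRNAs (0.22) and snRNAs (0.26) stayed above it, and 11 snoRNAs were higher and 4 lower.

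**Figure D4:**
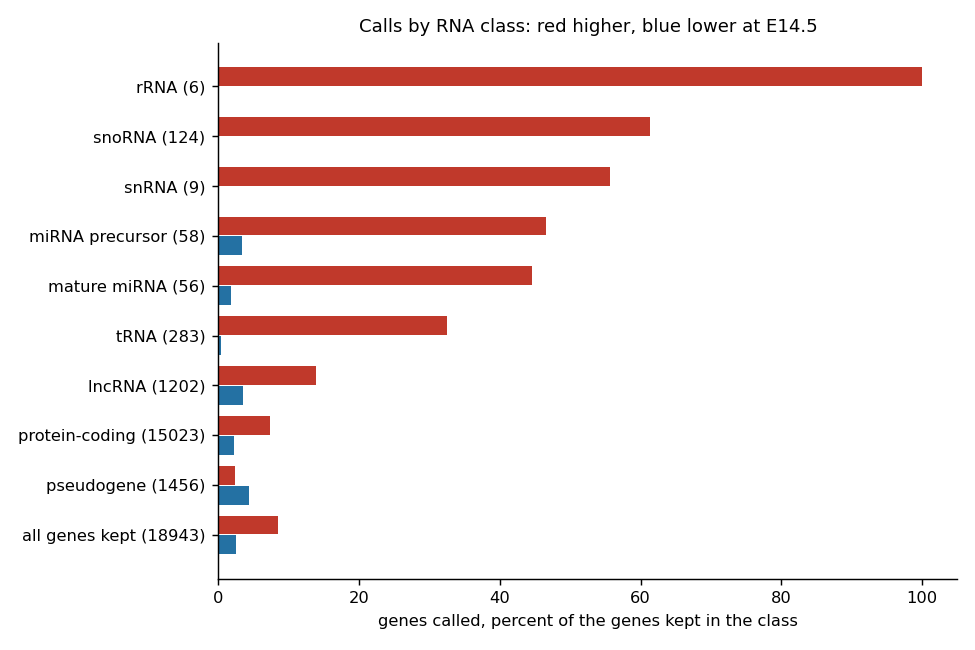
Percent of the genes kept in each RNA class (number in brackets) that rose (red) or fell (blue) between E12.5 and E14.5. The bars run from 2.34% higher for pseudogenes and 7.33% for protein-coding genes to 61.3% for snoRNAs and 100% for the 6 rRNA genes.

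Snord22 had 5996, 3025, 3212 and 6613 counts and rose 3.68-fold (3.52 to 3.84). Snora7a rose 3.57-fold and Snord118, which acts in the processing of rRNA, 2.33-fold, while the U3 genes Rnu3b4 and Rnu3a, of the same pathway, had ratios of 1.44 each. Of the spliceosomal RNAs, Rnu5g rose 3.52-fold and Rnu12, of the minor spliceosome, 2.47-fold. The proline tRNA gene n-Tp9 rose 3.20-fold. The 7SL genes Rn7s2 and Rn7s1 had ratios of 1.24 and 1.33 and 7SK (Rn7sk) 1.27, and none of these 3 was called. Of the 76 snoRNAs that rose, 36 were at least 2-fold higher at E11.5 than at E13.5 and 1 was lower. Of 91 tRNA genes that rose and had enough counts, 65 were at least 2-fold higher at E11.5 and none at E13.5.

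Mature miRNAs were thinly counted. Of 56 kept, 25 rose and 1 fell, beside 8.48% and 2.49% of all genes. Among the 5874 genes whose larger count was 10 to 99, 1019 rose and 320 fell. Of the 56 miRNAs, 50 had a sequence in RefSeq, and 10 had at least 100 counts. Those shown are the members of the 2 seed families with more than 1 member higher, and the miRNA of the fetal gonad miR-202-5p. They are written 5′ to 3′ with the seed, bases 2 to 8, in capitals.
let-7a-5p: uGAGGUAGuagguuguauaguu
let-7b-5p: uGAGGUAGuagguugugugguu
let-7c-5p: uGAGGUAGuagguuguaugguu
let-7e-5p: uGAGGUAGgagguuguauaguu
let-7f-5p: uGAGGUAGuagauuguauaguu
miR-125a-5p: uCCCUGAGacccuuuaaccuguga
miR-125b-5p: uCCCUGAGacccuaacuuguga
miR-351-5p: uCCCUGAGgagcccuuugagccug
miR-202-5p: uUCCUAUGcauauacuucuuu
The let-7 family, which rises with differentiation in many tissues, had 4 of 5 members higher. Its summed counts were 125, 160, 257 and 230 from E11.5 to E14.5. let-7c-5p had 33, 68, 99 and 98 counts and rose 2.42-fold (1.76 to 3.35), and let-7e-5p, with 52 and 55 counts in the libraries compared, was not called. In the family of miR-125, miR-125a-5p had 84 counts at E12.5 and 142 at E14.5 and rose 2.84-fold (2.16 to 3.77), and miR-125b-5p had 49 and 102 and rose 3.50-fold (2.47 to 5.03). The family's summed counts were higher at E11.5 (226) than at E13.5 (126). miR-202-5p had 0, 24, 22 and 47 counts and rose 3.29-fold (1.97 to 5.63). Members of a seed family differ by few bases, and how reads that match several of them were counted is not stated.

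Several messenger RNAs that let-7 is known to repress elsewhere were lower. Hmga2, a chromatin protein of fetal cells, was at 1118, 440, 204 and 147 scaled CPM and fell 2.95-fold (2.83 to 3.08). Igf2bp1, an RNA-binding protein of growth, was at 195 and 77.0 in the libraries compared and fell 2.51-fold (2.37 to 2.66). Lin28a, which blocks the making of let-7, was 1.41-fold lower (1.26 to 1.59). The genes were picked for this link with their values in view, and the relation was not tested.

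The gene with the most added counts was 18S rRNA. Rn18s-rs5 had 2833632, 334505, 325792 and 12816977 counts from E11.5 to E14.5 and rose 64.4-fold (64.2 to 64.7). It was high at E11.5 as well, so the 4 libraries did not follow the order of the days. The 5S gene n-R5s136 had 248, 22, 16 and 869 counts. The mitochondrial rRNAs Rnr1 and Rnr2 rose 2.50- and 2.13-fold.

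Some other genes had this same order of libraries. With at least 1000 counts at E14.5, 13 genes, Rn18s-rs5 among them, were at least 4-fold higher in both pairs (E14.5 over E12.5, and E11.5 over E13.5), and 5 of them were protein-coding. Lars2, the mitochondrial leucyl-tRNA synthetase, had 162002, 15652, 10378 and 1125000 counts and was 121-fold higher (119 to 123). LOC102639045, a long noncoding RNA, was 108-fold higher, Xylb, a xylulose kinase, 32.9-fold and Purg 7.80-fold. The rest were Ankrd60, Gykl1, 4933408J17Rik, 3930402G23Rik and both forms of each of 2 miRNA genes. The mature sequences of these are
miR-6236: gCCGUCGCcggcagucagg
miR-6240: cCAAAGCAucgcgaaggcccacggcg
with the seed again in capitals. miR-6236 had 15354, 2133, 2025 and 88495 counts and was 69.8-fold higher (66.8 to 72.9), and miR-6240 had 2137, 147, 125 and 7894 and was 90.3-fold higher (76.7 to 107). In the RefSeq table the mature miR-6236 lies at chr9:110281353-110281371 on the plus strand and miR-6240 at chr5:114851973-114851998 on the plus strand (GRCm38). Among the GENCODE transcripts searched, each was found in its own precursor only. The search took exact matches to annotated transcripts and covered no genome sequence. Whether these counts include reads from ribosomal RNA was not tested.

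Foxa1, a pioneer factor of epithelia, had 170, 26, 48 and 908 counts and was 58.7-fold higher (39.8 to 90.4). Wnt7b, Tbr1, Pdgfb and Ube3c were 6.22-, 4.31-, 4.18- and 4.39-fold higher and were also higher at E11.5 than at E12.5 or E13.5. These 4 were picked with their values in view. The plot of 18S rRNA and these genes sets them beside Sycp1 and Cyp17a1, which were lowest at E11.5. The part of library composition in the rises of the first group was not tested.

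**Figure D5:**
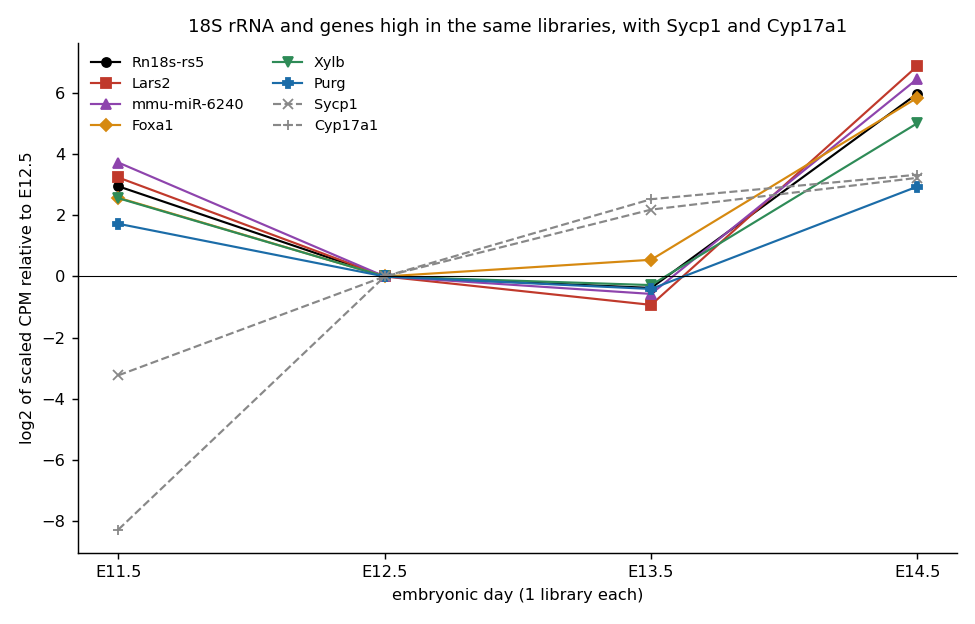
Log2 of scaled CPM relative to E12.5 in the 4 libraries (1 a day) for 18S rRNA and 5 genes, drawn solid, and for Sycp1 and Cyp17a1, drawn dashed. The solid lines are above 0 at E11.5 and E14.5, with Lars2 rising 6.92 and Purg 2.96 on the log2 scale of the pair, while the dashed lines climb from E11.5 to E14.5.

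The E11.5 and E13.5 libraries, which took no part in the comparison, show how far this order reached. Over 18653 genes with enough counts in both pairs, 7.99% were at least 2-fold higher at E11.5 and 10.2% at E13.5. Among the genes that rose between E12.5 and E14.5 these shares were 24.1% (355 of 1476) and 32.5% (480), and among protein-coding ones 17.6% and 41.1%. Of those that rose with at least 1000 counts, 36.0% were higher at E11.5 and 29.8% at E13.5. Among the genes that fell the shares were 20.9% and 24.2%, and among genes not called 6.23% and 7.82%. Both shares were thus raised among called genes of either direction, not among the rises alone. The lists fell on different sides. Of the 22 meiotic genes that rose, 19 were at least 2-fold higher at E13.5 than at E11.5 and none was 2-fold lower. Stag3, among the others, was at 83.6 scaled CPM at E11.5 and 65.2 at E13.5. The 12 Leydig genes that rose were all at least 2-fold higher at E13.5. Of the 4 macrophage genes that rose 3 were at least 2-fold higher at E11.5 and none at E13.5. The E11.5 library also held mesonephros, and tissue and library composition cannot be told apart in it.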

How the data were processed

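Total RNA of 4 pooled samples, 1 a day, was depleted of rRNA with probes and RNase H, tailed, tagged with UMIs and made into stranded libraries. The authors aligned reads to mm10 and counted, per gene, those left after removal of UMI duplicates, and the whole-number counts used here are as deposited. The RPKM and TPM values, which the authors made from those counts and gene lengths, are as deposited, and the TPM served in 1 alternative. Tool versions and how multimapping reads were treated are not given in the sources used here. Samples were assigned to days by their labels.

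Scaling used edgeR 4.0.16 (TMM) in R 4.3.3, with DESeq2 1.42.0 size factors as an alternative, and Python 3.11.15 (scipy 1.17.1, pandas 2.3.3, numpy 2.4.6, matplotlib 3.10.9). Genes with at least 10 counts in 1 of the 2 libraries were kept. Totals were 31266481, 25593453, 31752562 and 31526303 counts from E11.5 to E14.5. Intervals and limits cover counting error only. The comparison was also run on simulated counts, drawn with counting error only. RNA classes, promoters and miRNAs came from GENCODE M21 and RefSeq (GRCm38.p6). Alternatives were other scalings, count minimums of 1 and 50, a prior count, a 4-fold threshold, the fold alone, edgeR's exact test at preset dispersions and the ratio of TPM.

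The members and the 34 gene lists were chosen with earlier results of these data known. A list of mitochondrial genome genes had no member listed in the files. Named genes are the 12 largest rises and falls of protein-coding genes and the 5 largest of other classes with at least 100 counts, and for each list its defining first members and the 4 largest changes. Other members and other genes named as examples were chosen after their values were seen. They include Dusp4, Dusp6, Etv4, L1td1, Sall4, Mycn, Hmga2, Igf2bp1, Ogn, Aspn, Mfap4, Prlr, Alas1, Wnt7b, Tbr1, Pdgfb, Ube3c, Xylb, Purg, the small RNAs and the promoters printed. A few list members are counted but not reported by name here.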

Additional observations from a re-analysis of the deposited data

How the results depend on the processing

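The main count was 1606 genes higher and 471 lower. DESeq2 size factors gave 1591 and 486, TMM from protein-coding genes 1595 and 480, rRNA left out 1600 and 471, no filter 1843 and 512, a prior count of 2 gave 1547 and 448, and the ratio of TPM 1564 and 466. Total counts gave 439 higher and 10143 lower, with the median log2 fold change at -1.04. On that scaling the log2 fold changes of Aldh1a1, Defb19 and Prtn3 turned to -0.0476, -0.022 and -0.0377, and 16 of the 22 lists with a median above 0 turned below it. A minimum of 50 counts gave 854 and 244, and a 4-fold threshold 583 and 134. The fold without the interval gave 1744 and 733. An exact test in edgeR, with an adjusted p of at most 0.05 and a preset biological coefficient of variation, gave 1257 and 282 at 0.1, 738 and 114 at 0.2, and 69 and 3 at 0.4, so the number of calls rests on the spread assumed. Without the genes at least 2-fold higher at E11.5 than at E13.5, an alternative chosen after the data were seen, 1251 and 377 remained of 17452, and the stefin list, with 2 genes left (Stfa2 and Cstb), had a median of 1.29 in place of 3.29. No paired analysis was possible because each day had 1 library. No replicate could be left out for the same reason. Robust SDs of the log2 fold change were 0.89 for genes with 10 to 99 counts in the higher library and 0.20 for those with 1000 or more, so depth limits the thinly counted genes most.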

Other observations

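Outside the lists, the largest falls of other RNA classes with at least 100 counts were Gm6023 (109 counts at E12.5 and 14 at E14.5, 4.63-fold lower), Gm2373 (196 and 28, 4.16-fold), 4930563E18Rik (215 and 32, 3.996-fold), Tpd52-ps (103 and 17, 3.60-fold) and D7Ertd143e (248 and 42, 3.51-fold). These changes were smaller than those of the rises of the same classes, led by the 5S rRNA genes Rn5s10 (0 and 375 counts, at least 210-fold higher) and n-R5s124 (1 and 123, a ratio of 207 with an interval from 36.4 to 8235). The growth-restraining factor Nfix went from 579 counts to 1980 and was 5.75-fold higher (5.24 to 6.32), with 151 counts at E11.5 and 1660 at E13.5. Cxcl12, the ligand that guides migrating germ cells and blood vessels, was at 308, 118, 194 and 321 scaled CPM from E11.5 to E14.5. It was 2.76-fold higher at E14.5 than at E12.5 (2.65 to 2.87). Srebf2, a regulator of the cholesterol genes, was at 169, 132, 148 and 438 and was 3.36-fold higher (3.23 to 3.48). Both were higher at E11.5 than at E12.5 or E13.5. The cholesterol synthesis list summed to 680, 663, 1040 and 1171, with a median log2 fold change of 0.81, and a link to Srebf2 was not tested. The 9 surface epithelium genes gave no call, with a median of -0.24, and Wt1, a factor of coelomic epithelium and supporting cells, was 1.55-fold lower (1.49 to 1.61). Of 10 neuron and glia genes 3 were higher and 1 lower, beside 8.48% and 2.49% of all genes. Tubb3 was 4.27-fold higher (3.16 to 5.84), and Stmn2 fell from 51 counts to 11, beside 278 at E11.5. Of 11 genes of X inactivation and the Y chromosome 1 was higher, Usp9y with 17 and then 50 counts, and 2 were lower, Sry and Zfy1. Nfix, Cxcl12 and Srebf2 were chosen after their values were seen.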
